A study of Mus musculus with 6 samples.

Results

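The milk protein and secretory differentiation genes are a set of 10 genes chosen by symbol: the caseins Csn1s1, Csn1s2a, Csn2 and Csn3, the whey proteins Wap and Lalba, the iron-handling proteins Ltf and Lcn2, and the milk fat globule proteins Btn1a1 and Mfge8. The identifiers of the normalized table were matched to mouse symbols with GENCODE on GRCm38, and 7 of the 10 were found among its 22310 genes. Csn1s2a, Csn2 and Wap were not analysed here. The genes were read in metastasis-initiating cells (MICs) and their non-MIC counterparts, by same-numbered pair.

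Milk is made by the alveolar cells of the luminal mammary epithelium. Prolactin acts on these cells through its receptor, the kinase Jak2 and the transcription factor Stat5, and Elf5, an ETS factor of the alveolar lineage, acts in the same program to switch on caseins, whey proteins and the enzymes of lactose and milk fat. Basal and myoepithelial cells, the other epithelial layer, contract to eject milk and do not make it. Some of the same proteins, lactoferrin (Ltf) and lipocalin 2 (Lcn2) among them, are also stored in neutrophil granules and are produced by epithelia during inflammation and involution, the regression of the gland after weaning.

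The cells came from mammary tumors of FVB/N mice of 12 to 18 weeks carrying MMTV-PyMT, a transgene that places the polyoma middle T oncogene under the mouse mammary tumor virus promoter, which is active in mammary epithelium. Both populations carry the transgene, and the genotype label of all 6 libraries is WT. Primary tumor cells were kept in DMEM/F12 with 2% serum, 10 µg/ml insulin and 20 ng/ml hEGF, with no prolactin or glucocorticoid named, and were sorted 1 day after plating. Cells negative for Ter119, CD31 and CD45 (Lin-) and positive for CD24 were split by CD90 into CD90+ cells, the MICs, and CD90- cells, the non-MICs. There were 3 libraries of each population, numbered 1 to 3 in both. The labels do not say whether the numbers stand for tumors, animals or days, so the p-values measure the spread of these libraries only. In fits that leave the numbers out, that is the spread between libraries of a population. In fits with the number as a block, it is the spread of the differences within same-numbered pairs.

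The deposited values are read counts scaled to a common library total, called scaled counts here, and 1 read was worth between 0.676 and 1.11 of them. The libraries held between 31467281 and 51759769 reads, with no sign of a few genes taking up the depth (the top 10 held 5.69% to 6.51%). Thy1, the gene for CD90, was at 1508.5, 301.4 and 755.3 scaled counts in MICs 1, 2 and 3 and at 16.93, 21.13 and 12.62 in the non-MICs, and Cd24a, the marker both populations share, was not called (log2 fold change -0.01, limma adjusted p = 0.984 with the replicate block). Over all genes, limma without a block called 0 genes at an adjusted p of 0.05, which is 0% of those tested, with 322 genes at an unadjusted p under 0.05. edgeR without a block also called 0, with 295 at an unadjusted p under 0.05. Same-numbered libraries deviated from their group means together, so differences are also given with the replicate number as a block.

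Promoter sequences were printed for 3 genes that the results turn on: Csn1s1, a casein whose levels followed the library number; Ltf, the only milk gene called between MICs and non-MICs; and Elf5, the gene whose values were most like those of Ltf. RefSeq promoters on GRCm38.p6 were matched for 5 of the 7 milk genes, and those of Csn3 and Btn1a1 were not analysed here. Each run is 5′ to 3′ on the gene's own strand, lies upstream of the transcription start and is limited to bases outside the annotated exons of its gene. Capitals mark matches to one of 3 letter patterns, searched on both strands of the 250 bases upstream of each start: TTCNNNGAA, the core bound by STAT5, TTGCNNAA, a C/EBP core, and the octamer ATGCAAAT. The patterns did not overlap one another in these runs.
Csn1s1, chr5:87665958-87666207, plus strand: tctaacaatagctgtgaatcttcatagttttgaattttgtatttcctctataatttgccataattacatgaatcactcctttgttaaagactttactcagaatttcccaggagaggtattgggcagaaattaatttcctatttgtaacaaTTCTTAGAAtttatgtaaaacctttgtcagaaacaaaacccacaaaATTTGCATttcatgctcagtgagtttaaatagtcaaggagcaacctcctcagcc
Ltf, chr9:111019042-111019270, plus strand: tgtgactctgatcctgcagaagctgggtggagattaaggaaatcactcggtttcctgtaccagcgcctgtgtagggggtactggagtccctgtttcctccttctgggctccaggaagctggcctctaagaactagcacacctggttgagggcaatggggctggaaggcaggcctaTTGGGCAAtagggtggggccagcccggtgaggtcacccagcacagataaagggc
Elf5, chr2:103423818-103424061, plus strand, the second of its 2 listed starts: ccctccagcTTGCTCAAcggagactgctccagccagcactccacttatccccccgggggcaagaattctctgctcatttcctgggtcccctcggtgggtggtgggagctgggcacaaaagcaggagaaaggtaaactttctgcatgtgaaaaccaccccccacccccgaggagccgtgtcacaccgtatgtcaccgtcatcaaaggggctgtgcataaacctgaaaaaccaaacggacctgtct

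The Csn1s1 promoter held the STAT5 letters from position -100 and the octamer, read on the opposite strand, from position -54, counting -1 as the last base before the start. The Ltf promoter held the C/EBP letters, also read on the opposite strand, from position -75, and the Lcn2 window held them from position -216. The Lcn2 window lies within the annotated span of the gene. Its longest stretch outside annotated exons, from -111 to -59, does not hold that match. The STAT5 letters were not in the windows of Ltf, Lcn2, Lalba and Mfge8, and none of the 3 patterns was in those of Lalba and Mfge8. Of 16823 promoters of genes in the table, 5.99% held the STAT5 letters, 7.92% the C/EBP letters and 1.28% the octamer. Both starts of Elf5 held the C/EBP letters, from position -235 at the first and from -241 at the second. The window of the first start lies wholly within annotated exons of Elf5. A match describes the letters only, since binding was not measured.

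The first question was whether milk genes differed between MICs and non-MICs. 1 of the 7, Ltf, was lower in MICs in all 3 pairs and was called once the pairs were taken into account; the other 6 were not called. Without a block limma gave an adjusted p of 1 for each of the 7, and 0 of the 7 had an unadjusted p under 0.05. The caseins, Lcn2 and the fat globule genes had fitted differences between -0.41 and 0.09 on the log2 scale, and none of these 5 moved the same way in all 3 pairs. All log2 values here are of the scaled count plus 1.

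Ltf encodes lactoferrin, an iron-binding milk protein that withholds iron from microbes, and lies on chromosome 9 from 111019271 to 111042767 on the plus strand. It stood at 2364.7, 37.82 and 1619.5 scaled counts in MICs 1, 2 and 3, and at 8916.9, 143.7 and 2966.0 in non-MICs 1, 2 and 3. The groups overlapped, because both libraries numbered 2 were far below the other 4, but in each pair the MIC library was the lower one. The non-MIC level was 3.77, 3.8 and 1.83 times that of MICs in pairs 1, 2 and 3. Reads behind these levels ranged from 34 in MIC 2 to 8425 in non-MIC 1.

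The mean log2 level of Ltf was 9.05 in MICs, with an SD of 3.28 (n = 3), and 10.61 in non-MICs, with an SD of 3.08 (n = 3). The difference was a log2 fold change of -1.56 ± 1.90 (SE) that limma without a block did not call (adjusted p = 1). With the replicate block the same change had an SE of 0.216 and an adjusted p of 0.0122. edgeR with the block gave a log2 fold change of -1.51 (adjusted p = 1.69e-09), and DESeq2 with the block gave -1.49 (adjusted p = 2.12e-06). In limma with the block, Ltf was 1 of 2 genes called lower in MICs, 0.00896% of those tested, while 27 were called higher, or 0.121%. In edgeR with the block, 0.372% of all genes were called lower and 1.04% higher. The limma call depended on the pairs that entered it. Without pair 2 the change was -1.39 (adjusted p = 0.0457), without pair 1 it was -1.39 (adjusted p = 0.233), and without pair 3 it was -1.91 (adjusted p = 0.453).

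**Figure D1:**
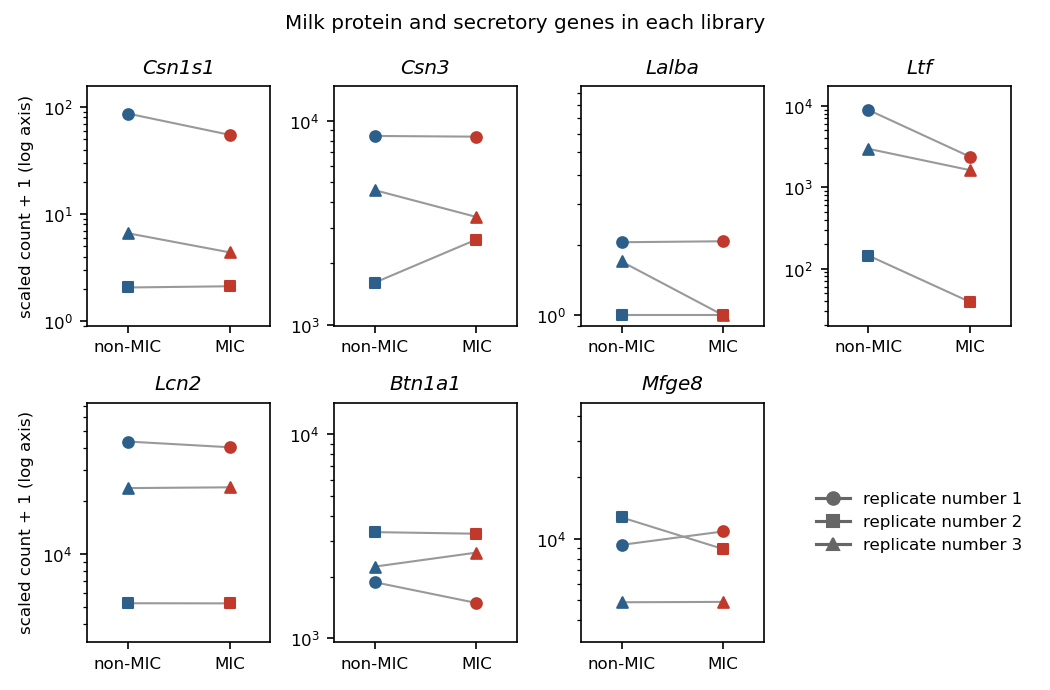
Scaled count plus 1 (log axis, scale set per panel) of the 7 milk genes in each non-MIC (blue) and MIC (red) library, with a line joining libraries of the same replicate number (circle 1, square 2, triangle 3). The 3 Ltf lines all fall towards MICs, whereas those of Lcn2 are level, from 43659.6 to 40513.9 in pair 1, and lie far apart from each other.

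Other cell types were read beside this difference. In sorted bulk samples, fewer cells of a type and less RNA per cell cannot be told apart. Of 9 basal and myoepithelial markers, all in the table and none at 0 in any library, limma with the block called 5 higher in MICs and edgeR with the block called 6. Acta2, the actin of smooth muscle and myoepithelium, differed by 2.42 on the log2 scale (adjusted p = 3.12e-05 in limma with the block). Of the 9 markers, 6 were higher in MICs in all 3 pairs (all genes: 12.5%). Krt14, Krt17 and Oxtr had pairs in both directions and were not called by either tool with the block. The log2 fold change of Krt14 was -0.10, with pair 2 at -0.90. The summed level of these 9 markers ranged from 24380 to 429054 scaled counts in MICs and from 24140 to 145058 in non-MICs. Over all genes, limma with the block left 5.97% lower and 5.24% higher in MICs at an unadjusted p under 0.05, the background for the unadjusted counts given with the block from here on. The 5 luminal markers Krt8, Krt18, Krt19, Epcam and Cdh1 had a median log2 fold change of -0.18, and 0 of 5 were called by limma or edgeR with the block, with 0 at an unadjusted p under 0.05 in limma. Their sum ranged from 211658 to 589774 in MICs and from 277193 to 697460 in non-MICs. The 4 alveolar and luminal progenitor markers, Elf5, Kit, Aldh1a3 and Cd14, had a median log2 fold change of -0.58. Of these, 3 of 4 were lower in MICs in all 3 pairs, as Ltf and 18.8% of all genes were. The remaining marker, Cd14, ran the opposite way, with log2 differences of 0.170, 0.127 and 0.183 in pairs 1, 2 and 3. limma with the block called 0 of 4, with 3 lower at an unadjusted p under 0.05, and edgeR with the block called 2 lower, Elf5 and Kit. Kit, a receptor of luminal progenitor cells, was at 327.8, 15.57 and 633.6 scaled counts in MICs and at 930.3, 15.85 and 1012.7 in non-MICs, with a log2 fold change of -0.89 in edgeR with the block (adjusted p = 0.0209) and a limma adjusted p of 0.422. Aldh1a3, an aldehyde dehydrogenase, differed by -0.42 and was not called by either tool. The summed level of the 4 ranged from 4148 to 6429 in MICs and from 6018 to 7146 in non-MICs. Of 5 hormone-sensing luminal markers 4 were in the table, and 0 were called by limma or edgeR with the block, with 1 lower at an unadjusted p under 0.05 in limma. The part of the basal, luminal and progenitor cells in the Ltf difference was not tested.

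Neutrophil granules also hold lactoferrin, and 6 of 11 neutrophil and granulocyte markers were in the table. S100a8, a calcium-binding protein of neutrophils that epithelia can also make, had between 82 and 388 reads. Its partner S100a9 had at most 30, Mmp8, a collagenase, at most 37, and the granule peroxidase Mpo at most 2. The sum of the 6 markers, most of it S100a8, was 143, 493 and 202 scaled counts in MICs, compared with 91, 185 and 272 in non-MICs, with the MIC library above its partner in pairs 1 and 2 but not in pair 3. Its part in the Ltf difference was not tested. 0 of 6 were called by limma or edgeR with the block, and 0 had an unadjusted p under 0.05 in limma with it. The 6 fibroblast markers all had log2 fold changes above 0, with a median of 0.64. Of these, 3 of 6 were higher in MICs in all 3 pairs (all genes: 12.5%). limma with the block called 0 of 6, with 2 higher at an unadjusted p under 0.05. edgeR with the block called 1 higher, Dcn, a matrix proteoglycan (log2 fold change 1.88, adjusted p = 0.0152). DESeq2 with the block did not call Dcn (adjusted p = 0.251). The log2 differences of Dcn were 1.135, 0.328 and 3.238 in pairs 1, 2 and 3. Pair 2 had 5 Dcn reads in the MIC and 4 in the non-MIC library. The MIC sum of these 6 markers was 0.952, 0.819 and 2.80 times the non-MIC sum in pairs 1, 2 and 3, and their part in the Ltf difference was not tested. Other leukocyte, adipocyte, and endothelial and erythroid markers gave 0 calls by either tool with the block and 0 at an unadjusted p under 0.05 in limma.

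Lcn2, which binds bacterial siderophores, is another secreted defence protein of milk, on chromosome 2 from 32384633 to 32388252 on the minus strand. It was at 40513.9, 5238.8 and 23966.6 scaled counts in MICs 1, 2 and 3 and at 43659.6, 5247.9 and 23724.1 in the non-MICs. The 2 libraries of a pair were close to each other, whereas libraries of one population were up to 8.32-fold apart. The log2 differences within pairs were -0.11, -0.003 and 0.015, and the fitted change was -0.03 ± 0.18 (SE with the block, limma adjusted p = 0.957). Ltf and Lcn2 thus shared low levels in the libraries numbered 2 but not the difference within pairs.

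Csn3 encodes kappa-casein, the casein that coats the surface of the milk micelle, and lies with Csn1s1 on chromosome 5, from 87925579 to 87932665 on the plus strand. Its levels were 8365.5, 2618.3 and 3379.7 scaled counts in MICs, compared with 8432.2, 1609.1 and 4574.8 in non-MICs. Pair 1 was level, pair 2 was higher in MICs by 0.70 on the log2 scale, and pair 3 differed by -0.44. The fitted change of 0.09 ± 0.20 (SE with the block) was not called by limma (adjusted p = 0.892).

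Csn1s1, the gene for alpha-S1 casein, a calcium-binding casein, spans 87666208 to 87682578 on chromosome 5 and was far lower than Csn3. It had 50, 1 and 5 reads in MICs 1, 2 and 3 and 81, 1 and 8 reads in the non-MICs. Nearly all of its reads were in the pair numbered 1. The fitted change of -0.41 ± 0.51 (SE with the block) was not called by limma (adjusted p = 0.780). Lalba, the gene for alpha-lactalbumin, which turns B4galt1 into the lactose-making enzyme, had 1, 0 and 0 reads in MICs and 1, 0 and 1 in their counterparts, and its fitted log2 value is not read as a change. B4galt1 itself, the galactosyltransferase, was between 2738.6 and 3684.1 scaled counts in all 6 libraries.

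Btn1a1 encodes butyrophilin, a membrane protein that is needed to release fat globules into milk, on chromosome 13 from 23456992 to 23465901 on the minus strand. Its scaled counts were 1491.3, 3258.9 and 2633.1 in MICs, compared with 1885.0, 3318.6 and 2247.8 in non-MICs. Mfge8 encodes lactadherin, a fat globule protein that also marks dying cells for engulfment, on chromosome 7 from 79133768 to 79149060 on the minus strand. It was at 10869.3, 8907.0 and 4905.8 in MICs and at 9337.1, 12736.7 and 4886.2 in non-MICs. For both genes the groups overlapped and the pairs pointed different ways. The fitted changes were -0.05 ± 0.17 (SE with the block, limma adjusted p = 0.934) for Btn1a1 and -0.10 ± 0.18 (SE with the block, limma adjusted p = 0.862) for Mfge8.

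Over the 7 milk genes the median log2 fold change was -0.10, or -0.07 without Lalba, whose value rests on 1 read or none per library, beside -0.05 over all 22310 genes. 1 of 7 was lower in all 3 pairs and 0 of 7 were higher, where 18.8% of all genes were lower and 12.5% higher in every pair. Of the 11155 genes at or above the median mean level, 3180 were lower and 1464 higher in every pair. The levels of MICs and non-MICs did not overlap for 0 of 7, and for 6.24% of all genes. The shares for the milk genes rest on so few genes that 1 gene sets them.

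**Figure D2:**
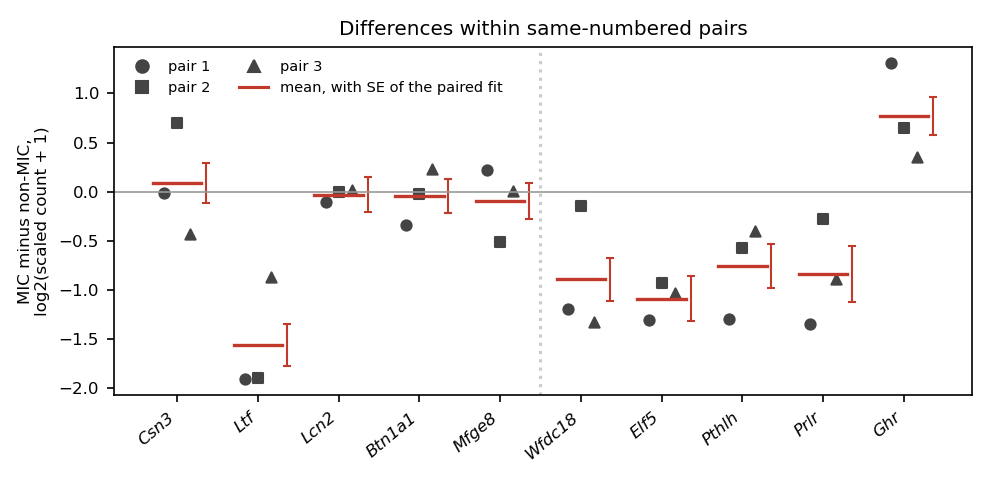
Difference in log2(scaled count + 1), MIC minus non-MIC, within pairs 1 (circle), 2 (square) and 3 (triangle) for 5 milk genes (left of the dotted line) and 5 other genes of the secretory program, with the mean (red line) and its standard error in the paired limma fit (red bar). Ltf lies at -1.91, -1.90 and -0.87, below 0 in every pair, and the other 4 milk genes lie around 0.

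Levels were also compared per kb of annotated exon. The length joins the exons of all annotated transcripts of a gene, 4152 bases for Csn3, 2623 for Lcn2 and 6247 for Csn1s1. Which transcripts were expressed was not tested, so the order of the genes depends on the annotation. On this measure Lcn2 was the highest of the 7 in 5 of 6 libraries, between 1997 and 16640 scaled counts per kb. In non-MIC 2 it was below Mfge8, which ranged from 1041 to 2713 per kb over the 6 libraries. Csn3 ranged from 387.6 to 2031 per kb, Ltf from 10.96 to 2585 and Btn1a1 from 362.1 to 805.7, so the levels of Mfge8, Csn3, Ltf and Btn1a1 overlapped. Csn1s1 reached at most 13.7 per kb, and Lalba at most 1.4. Kappa-casein was thus at 387.6 per kb or more in every library, also in those in which the alpha-S1 casein had 1 read.

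The second question was how far the milk genes differed between replicate numbers, that is, between pairs. A limma F test of the replicate number, with the population as a covariate, called 6 of 7 milk genes. It called 28.4% of all genes and 39.2% of genes at or above the median mean level. Each number holds a MIC and a non-MIC library and no repeat within a population. The p-values of this test therefore measure the spread left after number and population, not that between separate cultures of a number. Ltf (adjusted p = 2.26e-08), Lcn2 (adjusted p = 1.50e-06), Csn1s1 (adjusted p = 1.31e-04), Csn3 (adjusted p = 1.77e-04), Mfge8 (adjusted p = 0.00317) and Btn1a1 (adjusted p = 0.00993) passed in this limma test, and Lalba did not (adjusted p = 0.465).

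The pair means of Ltf spanned 5.94 on the log2 scale, those of Csn1s1 5.05, those of Lcn2 3.00 and those of Csn3 2.03, where the median gene spanned 0.91 and the median gene at or above the median mean level 0.59. Mfge8 and Btn1a1 spanned 1.12 and 0.97. The highest Ltf library was 62.5 times the lowest among MICs and 62.1 times the lowest among non-MICs, so both populations showed the same range. The libraries numbered 2 were the lowest of both populations for 5 of 7 milk genes, as they were for 17.9% of all genes, and the highest for 1 of 7. For Lalba this was a tie at 0 reads with MIC 3. The gene with number 2 highest was Btn1a1, for which number 2 was the highest and number 1 the lowest in both populations.

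Cell type markers also differed between the numbers. By the same F test 9 of 9 basal, 5 of 5 luminal, 4 of 4 alveolar and luminal progenitor and 3 of 4 hormone-sensing luminal markers were called. It also called 5 of 6 fibroblast, 4 of 6 neutrophil and 3 of 6 other leukocyte markers. Of the endothelial and erythroid markers 0 of 3 were called, and of the adipocyte markers 0 of 2. The test called 28.4% of all genes and 39.2% of those at or above the median mean level. In the libraries numbered 2, the luminal sum was 211658 scaled counts in MICs and 277193 in non-MICs, against 423011 to 697460 in the other 4. Among the leukocyte markers, Lyz2, the lysozyme of macrophages and other myeloid cells, was at 1635.0 and 833.6 in the libraries numbered 2. Elsewhere it was at 31.27 to 142.0. Ptprc, the gene for CD45, was at 10.01 and 6.339 in MIC 2 and non-MIC 2, from 9 and 6 reads. It was at 9.467 and 2.104 in MIC 3 and non-MIC 3 and at 0 in both libraries numbered 1. Number 2 was the highest in both populations for 4 of 6 other leukocyte and 3 of 6 neutrophil markers. The share of all genes for this was not counted. Csf1r, the macrophage growth factor receptor, was lowest in MIC 2 at 55.61. The basal sum was 24380 and 24140 in the libraries numbered 2, against 47133 to 429054 in the others. The part of these markers in the differences between numbers was not tested.

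**Figure D3:**
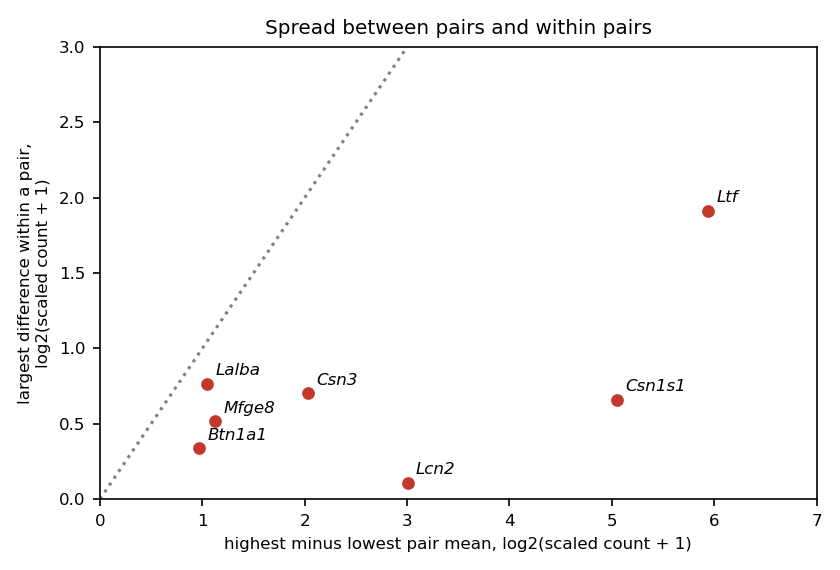
Highest minus lowest pair mean (x axis) against the largest absolute difference within a pair (y axis), both in log2(scaled count + 1), for the 7 milk genes; the dotted line marks equal values. All 7 lie below the line, and Ltf is the farthest out on both axes, at 5.94 and 1.91.

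The genes whose values were most like those of Ltf were sought by the root mean square difference of log2 values centred on each gene's mean, over 6 libraries and 12315 genes. They were Elf5 (0.625), Foxn1, a forkhead factor (0.667), and Atp10b, a phospholipid transporter (0.769). Elf5 was at 434.6, 14.46 and 541.6 scaled counts in MICs and at 1078.5, 28.53 and 1112.3 in non-MICs, low in the libraries numbered 2 and lower in the MIC library of every pair, as Ltf was. For Lcn2 the most alike were Hs3st3b1, a heparan sulfate sulfotransferase (0.168), Adamts8, a secreted metalloprotease (0.172), and Mfsd6l (0.204). Among the milk genes with more than single reads, the closest values were those of Csn3 and Lcn2 (0.588) and of Btn1a1 and Mfge8 (0.683), and the farthest apart were Ltf and Btn1a1 (3.05). The likeness describes 6 libraries that share 3 numbers, and no p is attached to it.

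Elf5 belongs to the regulators, which were read as a list of prolactin signal and alveolar regulators, 17 of 18 in the table. Of these, 9 were lower and 1 higher in MICs in all 3 pairs (all genes: 18.8% and 12.5%), with a median log2 fold change of -0.27. Among 11155 genes at or above the median mean level, 3180 were lower and 1464 higher in every pair. limma with the block called 0 of 17, with 6 lower and 1 higher at an unadjusted p under 0.05 (all genes: 5.97% lower, 5.24% higher), whereas edgeR with the block called 1 lower and 1 higher. The one lower was Elf5, with a log2 fold change of -1.11 (with the block, adjusted p = 4.49e-04 in edgeR, 0.00253 in DESeq2 and 0.139 in limma). The one higher was Ghr, the growth hormone receptor, at 2148.0, 2648.3 and 804.0 scaled counts in MICs, compared with 864.7, 1690.5 and 628.4 in non-MICs, a log2 fold change of 0.77 (edgeR adjusted p = 0.0112 with the block, limma adjusted p = 0.286 with the block).

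Prlr, the prolactin receptor, was at 64.70, 51.16 and 253.6 scaled counts in MICs and at 166.2, 62.34 and 469.9 in non-MICs, lower in every pair but not called (log2 fold change -0.84, limma adjusted p = 0.417 with the block). Stat5a ranged from 309.5 to 440.5 in MICs and from 458.5 to 468.9 in their counterparts, so the groups did not overlap, with a log2 fold change of -0.30 that was not called (limma adjusted p = 0.589 with the block). Stat5b (log2 fold change -0.40) and Nfib, a nuclear factor of the mammary lineage (-0.53), were also lower in every pair and were not called by either tool with the block. Stat5a was thus present in every library, including those in which the casein Csn1s1 had a single read.

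**Figure D4:**
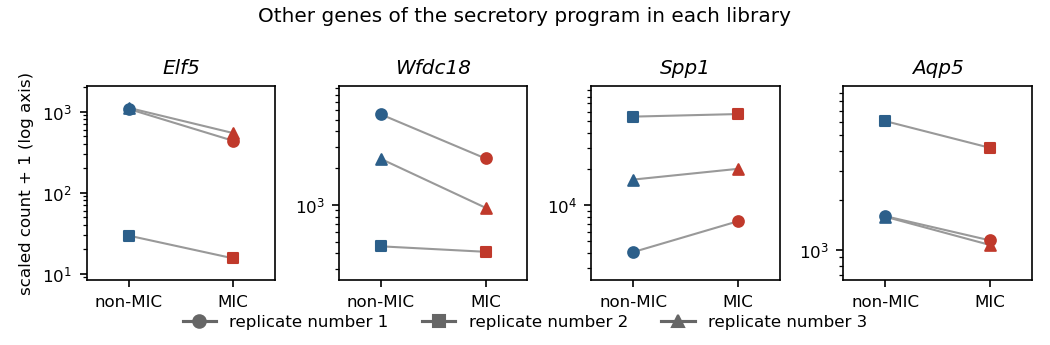
Scaled count plus 1 (log axis, scale set per panel) of the regulator Elf5, the milk proteins Wfdc18 and Spp1 and the water channel Aqp5 in non-MIC (blue) and MIC (red) libraries, with lines joining equal replicate numbers. Elf5 and Wfdc18 have their lowest libraries at number 2, while Spp1 and Aqp5 have their highest there, and the lines of Spp1 rise towards MICs while the others fall.

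Of 11 other milk proteins, 9 were in the table, and their median log2 fold change was -0.09. limma with the block called 0 of 9, with 2 lower at an unadjusted p under 0.05, and edgeR with the block called 2 lower and 0 higher. Wfdc18, a small secreted protein with a whey acidic protein domain, was at 2398.1, 411.5 and 946.0 scaled counts in MICs and at 5516.3, 456.4 and 2382.4 in non-MICs. Its log2 differences in the pairs were -1.20, -0.15 and -1.33 (with the block, adjusted p = 0.00101 in edgeR, 0.0191 in DESeq2 and 0.240 in limma). Pthlh, the parathyroid hormone-related protein that mobilizes calcium for milk, had a log2 fold change of -0.76 (edgeR adjusted p = 0.0486 with the block). With the block, limma (adjusted p = 0.388) and DESeq2 (adjusted p = 0.178) did not call Pthlh. Spp1, or osteopontin, chosen after its values were seen, was at 7318.4, 57153.8 and 19998.6 in MICs, compared with 4053.6, 54410.2 and 16276.6 in non-MICs, higher in every pair but not called (log2 fold change 0.41, limma adjusted p = 0.455 with the block). Csn1s2b and Cel were sparse, with no library above 18 reads, and Glycam1 was not analysed here.

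The milk fat globule and milk lipid list had all 16 genes in the table and a median log2 fold change of -0.18. 7 of 16 were lower and 2 higher in MICs in all 3 pairs (all genes: 18.8% and 12.5%). 0 of 16 were called by limma or edgeR with the block, with 3 lower and 1 higher at an unadjusted p under 0.05 in limma (all genes: 5.97% and 5.24%). Fasn, the fatty acid synthase, was at 17469.5, 14564.0 and 31427.1 scaled counts in MICs and at 34410.4, 30039.8 and 31773.3 in their counterparts, so that pairs 1 and 2 differed by -0.98 and -1.04 on the log2 scale and pair 3 by -0.02. Acaca, which makes the malonyl-CoA that Fasn uses, had the same order of pairs, at -0.54, -0.73 and -0.03. Plin2, the coat protein of lipid droplets, was between 21274.9 and 31517.9 in all 6 libraries. Xdh, which with Btn1a1 ties the droplet to the membrane, ranged from 347.2 to 869.5, and the membrane mucin Muc1 from 19.02 to 227.6, and both had pairs in either direction. Olah, the enzyme that releases medium-chain fatty acids, had at most 4 reads and was the 1 gene higher at an unadjusted p under 0.05. Thrsp, a regulator of lipid synthesis, had a log2 fold change of 0.32 (limma adjusted p = 0.716 with the block).

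Of the 10 genes for lactose and ion transport, all in the table, 2 were lower and 1 higher in MICs in every pair (all genes: 18.8% and 12.5%). Of the 10, 0 were called by limma or edgeR with the block, with 1 lower and 1 higher at an unadjusted p under 0.05 in limma. Aqp5, a water channel, was at 1137.6, 4162.1 and 1066.4 scaled counts in MICs, compared with 1598.2, 6050.9 and 1585.0 in non-MICs, with log2 differences of -0.49, -0.54 and -0.57 in the pairs (limma adjusted p = 0.388 with the block). Ugp2, which makes UDP-glucose for lactose, had a log2 fold change of 0.40 with pair 3 at -0.04, and the zinc transporter Slc30a4 had one of 0.37 with every pair above 0. Neither was called by limma or edgeR with the block. Atp2b2, a calcium pump, had at most 1 read in any library.

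Ltf and Lcn2 are also involution and acute phase genes, and the other 16 genes of that list, all in the table, had a median log2 fold change of -0.28. 4 of 16 were lower and 1 higher in MICs in every pair (all genes: 18.8% and 12.5%). Of the 16, 0 were called by limma or edgeR with the block, with 2 lower at an unadjusted p under 0.05 in limma (all genes: 5.97%). Igfbp5, which binds insulin-like growth factors, had a log2 fold change of -0.33 with pairs in both directions. Cd14, a receptor for bacterial lipopolysaccharide, had one of 0.16 with every pair above 0 (limma adjusted p = 0.726 with the block). Lrg1, 1 of the 2 genes lower at an unadjusted p under 0.05 in limma with the block, and Saa2 had at most 8 reads in any library. By the F test of the replicate number 12 of these 16 genes were called, as were 6 of 9 other milk proteins, 8 of 16 fat genes, 5 of 10 lactose and transport genes and 11 of 17 regulators, beside 28.4% of all genes and 39.2% of those at or above the median mean level.

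**Figure D5:**
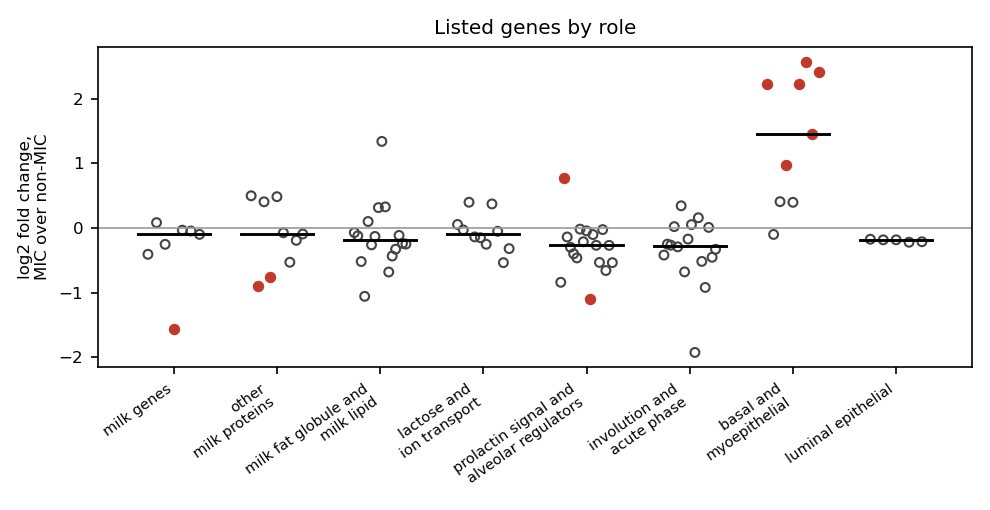
Log2 fold change, MICs over non-MICs, of each gene in the milk genes, in the 5 lists of the secretory program and in basal and luminal markers, with the median of each list (black line) and genes called by edgeR with the replicate block in red. Ltf is the red point of the milk genes at -1.56, and the basal list has 6 red points above 0.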

How the data were processed

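RNA was sequenced from 3 MIC and 3 non-MIC libraries, made by the authors with a stranded mRNA kit. The study's methods name Bowtie2 and samtools with GRCm38/mm10, and the submitters' processing notes name STAR and HTSeq, with versions not given in the sources used here. The deposited signal is read counts that the authors scaled to the total of each library, keeping genes expressed in a set share of the samples (each had values above 0 in 3 or more of the 6 libraries). Whole reads, to a tolerance of 0.01, were recovered for 99.99% to 100.0% of values from the step between them, and they set counting error only. Symbols came from GENCODE M21 for 22161 of 22310 identifiers, and 149 had none.

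limma 3.58.1 (R 4.3.3) was run on log2(value + 1) with a trend, all 6 libraries, no block, and Benjamini-Hochberg adjustment over 22310 genes at 0.05. The recovered reads were tested with the quasi-likelihood test of edgeR 4.0.16 and with DESeq2 1.42.0. To check the pairing, deviations from the group mean were correlated over all genes between a MIC and a non-MIC library. For equal numbers r was 0.573, 0.668 and 0.746, so the numbers, which come from the sample titles, were taken as pairs. For unequal numbers r was between -0.536 and -0.194. The deviations of a population sum to 0 over its 3 libraries, so positive values for equal numbers push the others below 0. The negative values are therefore no separate evidence of pairing. Settings varied were the pseudocount (0.1 and 10), removal of genes under the median mean, TMM and quantile scaling, no trend, and leaving out libraries or pairs. The procedures were tested on simulated data.

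The milk genes and the other lists were chosen with earlier results of these data known. Genes named are the milk genes, Thy1 and Cd24a, 9 lactogenic genes (Csn1s2b, Glycam1, Xdh, Plin2, Muc1, B4galt1, Prlr, Stat5a and Elf5), up to 2 genes in each direction per list with the smallest limma p without a block, any list gene past the threshold with the block in limma (there was none), and the 3 genes most like Ltf and like Lcn2 with a mean log2 level of at least 5. The same search for Csn2 and Wap was not run. Cell type markers are named where their values are given.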

Additional observations from a re-analysis of the deposited data

How the results depend on the processing

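Without a block the limma count of 0 genes called between MICs and non-MICs, and of 0 milk genes, was kept under every other pseudocount, filter, scaling and trend setting and in edgeR. With the replicate block it was 29 genes in limma, 315 in edgeR and 133 in DESeq2, and 1 milk gene, Ltf, in each. Leaving out 1 library, or 1 pair with the block, gave between 0 and 59 genes, and between 0 and 1 milk genes; with the block, 11 genes were called without pair 1, 59 without pair 2 and 0 without pair 3. The median log2 fold change of the milk genes ranged from -0.603 without MIC replicate 1 to 0.324 without MIC replicate 2, and was -0.565 without non-MIC replicate 2. Each of these medians is the value of 1 gene. The lowest is that of Lalba, which is not read as a change, the highest that of Ltf, and -0.565 that of Csn3. In the fits that leave out 1 library or pair, the log2 fold change ranged from -1.80 to 1.11 for Csn1s1, from -0.57 to 0.63 for Csn3, from -0.60 to 0.007 for Lalba (1 read or none per library, not read as a change), from -3.28 (without non-MIC replicate 2) to 0.32 (without MIC replicate 2) for Ltf, from -0.90 to 0.83 for Lcn2, from -0.28 to 0.28 for Btn1a1 and from -0.48 to 0.24 for Mfge8. Leaving out a single library breaks a pair, and the fit then has no block. Csn3 changed sign in edgeR without a block (-0.002) and Btn1a1 under quantile normalization (0.018), both near 0. Ltf was lower in MICs under every setting except without MIC replicate 2. The count of genes that differed between replicate numbers was 4369 of 11155 tested once genes under the median mean were removed. In the other settings of that test it was between 4985 and 7044 of 22310. The count of milk genes was 5 of 5 tested with that filter and 6 of 7 in the other settings. The depth limits Lalba and Csn1s1, which had 0 to 8 reads in most libraries.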
